A study of Mus musculus with 2 samples.

Results

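The regions described here are the 768 sites of open chromatin that lay at the start of a long non-coding RNA gene and away from every protein-coding start, among 30382 sites open in both libraries of the study (2.53%). They were taken from the longer peak list of each library. A peak of replicate 1 that overlapped a peak of replicate 2 by at least 1 base counted as shared. It was kept when its edge lay within 1000 bases of a transcript start of a GENCODE vM21 gene of type lincRNA, antisense, processed_transcript or sense_intronic, and more than 1000 bases from every transcript start of a protein-coding gene. The same cut put 17565 shared peaks at protein-coding starts, 11583 away from every annotated start and 466 at other non-coding starts only. Measured values played no part in the choice beyond the authors' own peak calling.

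DNase-seq, which sequences the ends of DNA cut by the enzyme DNase I in nuclei, had been run on whole liver of mouse embryos aged 13.5 days. Both libraries came from 1 group: strain C57BL/6N,129, carrying the LCR deletion together with the HET globin mutation. Replicates 1 and 2 were different biosamples under 1 donor identifier, with sex not collected. P-values are not given, and the spread between the libraries may be technical or biological. No library without these alleles was analysed here, and the sources used here do not give the extent of the deletion or say what the HET globin mutation is. With 1 group of 2 libraries no comparison of conditions was possible, and every statement describes this genotype. In bulk tissue, a site open in fewer cells and a site cut less often per cell cannot be told apart. As a check of the tissue, all 8 of 8 listed erythroid marker genes, among them Gata1 and Klf1, had a shared peak within 1000 bases of the start of a coding transcript. The same held for 2 of 8 hepatoblast markers (Foxa3 and Trf, but not Alb), 0 of 4 macrophage markers, 1 of 4 endothelial markers (Kdr) and 1 of 4 neuronal markers (Snap25).

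Long non-coding RNAs are transcripts without a recognised protein product. Many are made by RNA polymerase II from promoters like those of mRNAs, others from enhancers, and some are valued for what they carry in their introns, such as small nucleolar RNAs or microRNAs. Most cells of the liver at this stage form red blood cells, and GATA1, KLF1 and their partners open chromatin at red cell promoters and enhancers there. An annotated start of a lncRNA can thus coincide with a promoter, an enhancer or an insulator bound by CTCF, and open chromatin does not by itself show that the RNA is made.

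The sequences below show the kinds of site found among the 768. All are whole peaks of replicate 1, on the plus strand of mm10, read from the GRCm38 genome. The first is a CpG-rich site, shown because such sites were commonest among the highest peaks. It is the peak of the lincRNA gene 1700096K18Rik at chr5:25529581-25529840, with CG in capitals.
1700096K18Rik: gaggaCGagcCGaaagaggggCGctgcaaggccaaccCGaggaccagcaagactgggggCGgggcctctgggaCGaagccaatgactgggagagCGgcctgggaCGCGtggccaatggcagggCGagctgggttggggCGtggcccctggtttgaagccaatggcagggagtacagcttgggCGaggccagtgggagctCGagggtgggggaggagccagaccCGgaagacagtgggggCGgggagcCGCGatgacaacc

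The next sequences carry the CCAAT letters, the element bound by NF-Y at many promoters, inside a footprint of both libraries. A footprint is a short stretch within open DNA that the authors called as protected from cutting. The letters CCAAT or, on the other strand, ATTGG are in capitals where they fell in such footprints. The peaks are those of Tmem250-ps at chr2:26140481-26140700, 6720427I07Rik at chr13:48546561-48546800 and 1810026B05Rik at chr7:73558501-73558780.
Tmem250-ps: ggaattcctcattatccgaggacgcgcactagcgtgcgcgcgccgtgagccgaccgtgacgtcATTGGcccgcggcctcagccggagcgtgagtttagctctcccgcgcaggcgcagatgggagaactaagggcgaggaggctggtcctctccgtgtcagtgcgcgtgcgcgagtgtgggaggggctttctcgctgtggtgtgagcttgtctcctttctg
6720427I07Rik: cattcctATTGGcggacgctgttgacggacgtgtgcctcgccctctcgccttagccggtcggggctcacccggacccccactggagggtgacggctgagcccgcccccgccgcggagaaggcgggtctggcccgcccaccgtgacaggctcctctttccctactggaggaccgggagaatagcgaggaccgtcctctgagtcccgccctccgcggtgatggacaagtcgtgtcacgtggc
1810026B05Rik: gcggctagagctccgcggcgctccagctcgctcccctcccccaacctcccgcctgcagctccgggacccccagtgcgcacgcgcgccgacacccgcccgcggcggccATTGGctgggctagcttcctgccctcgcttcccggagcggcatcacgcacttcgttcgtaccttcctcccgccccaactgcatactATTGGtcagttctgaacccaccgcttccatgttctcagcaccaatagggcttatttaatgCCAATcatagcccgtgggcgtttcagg

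Sites with a GATA or CTCF sequence are shown because such sequences were commoner at peaks away from every start than at coding starts. Those printed had values above the median of the members. Gm15564, the highest member with a GATA match in a footprint of both libraries, is not printed. In 5830454E08Rik (chr9:120577121-120577360) and Gm38102 (chr5:123136521-123136720) the capitals mark a GATA match in a footprint of both libraries. In Gm39228 (chr8:94183241-94183440), Snhg7os (chr2:26640221-26640400) and AC163635.1 (chr17:29438441-29438680) they mark a match to the CTCF consensus in a footprint of both libraries. The 5830454E08Rik and Snhg7os peaks were CpG-rich, with centres at -90 and -61 bases from the start (negative is upstream). A GATA match in a footprint of both libraries lay in 1 CpG-rich member and in 4 members that were not CpG-rich.
5830454E08Rik: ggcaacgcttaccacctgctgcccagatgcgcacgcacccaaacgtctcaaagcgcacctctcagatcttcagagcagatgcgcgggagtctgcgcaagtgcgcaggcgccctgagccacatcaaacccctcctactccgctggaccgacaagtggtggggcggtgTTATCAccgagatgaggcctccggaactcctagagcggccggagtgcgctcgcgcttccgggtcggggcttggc
Gm38102: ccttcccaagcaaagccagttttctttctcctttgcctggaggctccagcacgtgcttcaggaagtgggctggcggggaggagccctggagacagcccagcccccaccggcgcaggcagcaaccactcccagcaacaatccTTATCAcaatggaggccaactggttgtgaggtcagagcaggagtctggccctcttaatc
Gm39228: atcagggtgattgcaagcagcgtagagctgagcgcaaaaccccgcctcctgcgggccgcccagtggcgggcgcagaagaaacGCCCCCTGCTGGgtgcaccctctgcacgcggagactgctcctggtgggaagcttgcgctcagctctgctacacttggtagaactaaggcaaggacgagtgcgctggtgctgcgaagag
Snhg7os: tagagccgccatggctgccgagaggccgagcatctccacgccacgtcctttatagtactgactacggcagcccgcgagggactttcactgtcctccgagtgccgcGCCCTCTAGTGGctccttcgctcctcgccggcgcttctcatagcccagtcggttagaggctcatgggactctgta
AC163635.1: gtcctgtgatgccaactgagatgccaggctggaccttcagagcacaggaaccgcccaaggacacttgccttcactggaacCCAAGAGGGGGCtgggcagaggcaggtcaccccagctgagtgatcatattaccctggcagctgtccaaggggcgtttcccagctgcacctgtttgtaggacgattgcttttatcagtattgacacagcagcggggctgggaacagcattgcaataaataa

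Bloodlinc, a lncRNA known from red cell precursors, and Malat1, an abundant nuclear RNA, are shown as single examples of known genes. Both were chosen after their values were seen. Capitals mark bases that lay in a footprint of both libraries. The Bloodlinc peak is chr11:102375861-102376120 and the Malat1 peak is chr19:5803561-5803700. The edge of the Bloodlinc peak lay 900 bases from the start, and its centre 1029 bases along the transcript.
Bloodlinc: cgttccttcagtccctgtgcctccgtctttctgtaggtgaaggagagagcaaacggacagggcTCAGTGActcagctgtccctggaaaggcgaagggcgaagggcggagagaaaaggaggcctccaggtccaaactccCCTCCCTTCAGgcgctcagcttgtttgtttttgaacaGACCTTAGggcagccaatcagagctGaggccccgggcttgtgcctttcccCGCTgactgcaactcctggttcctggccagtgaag
Malat1: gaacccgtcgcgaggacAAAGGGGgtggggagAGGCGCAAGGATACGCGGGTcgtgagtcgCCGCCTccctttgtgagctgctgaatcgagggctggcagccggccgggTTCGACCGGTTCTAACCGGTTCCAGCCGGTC

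The 768 peaks lay nearest to a start of 596 lncRNA genes. The nearest gene was a lincRNA for 451 peaks, an antisense gene for 176, a processed_transcript gene for 132 and a sense_intronic gene for 9. Most genes had a single peak (467), 98 had 2 and 22 had 3. The lncRNA start fell inside the peak for 287 (37.4%, exact 95% interval 33.9 to 40.9) and within 100 bases of it for 383. Peak centres gathered just upstream of the start: 441 (57.4%, 53.8 to 60.9) were upstream, and 373 lay within 200 bases on either side. These and all later intervals are exact binomial ones that cover counting error only, since peaks of 1 tissue are not replicates of it.

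**Figure D1:**
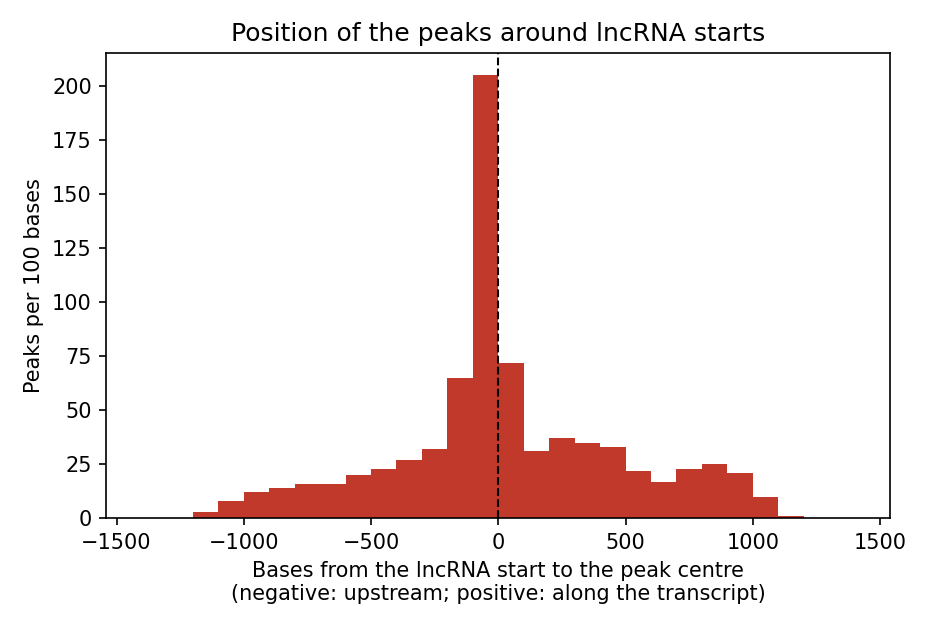
Number of peaks (vertical axis, per 100 bases) by distance in bases from the nearest lncRNA start to the peak centre, with upstream to the left and the dashed line at the start. The tallest bar is the one just upstream of the start, and 441 of the 768 centres lie left of the line.

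The distance to protein-coding starts was wide, with a median of 19312 bases. A coding start lay within 2000 bases of 72 peaks and more than 50000 bases from 199. A protein-coding gene body held 157 peaks (20.4%), and in 140 of these cases every such gene ran on the strand opposite to the lncRNA. Antisense genes accounted for 110 of the 157. A coding exon was touched by 60 peaks, a coding UTR by 21, and a coding intron alone by 97. For 59 peaks the lncRNA gene had a further start beside a protein-coding start, and 46 peaks lay near starts of more than 1 lncRNA gene. DNase-seq carries no strand of transcription, so a peak near several starts cannot be given to 1 of them. Some members overlapped one another in the deposited list, and joining these left 755 stretches. A single replicate 2 peak served more than 1 shared peak in 79 cases.

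The label rests on GENCODE's gene types, and a second annotation differed for some genes. Within 1000 bases of a curated RefSeq mRNA start lay 35 of the 768 peaks (4.56%), at 21 RefSeq genes. Tmem250-ps, among the highest peaks, is typed protein_coding in RefSeq, and the 4 peaks given to Zswim6 lie near a RefSeq mRNA start of that name. The start of the RefSeq Zswim6 gene thus counts here as a lncRNA start only by its GENCODE type. Leaving out these 35 peaks gave 733 members. It moved neither the medians nor the shares with a footprint, a CpG-rich window or a GATA motif beyond the limits given in the closing section.

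Few annotated lncRNA genes had such a peak. Of 8352 lncRNA genes with a start more than 1000 bases from coding starts, 593 (7.10%, 6.56 to 7.67) had one. The share was 6.57% for lincRNA genes (362 of 5508), 6.66% for antisense genes (133 of 1998) and 2.62% for sense_intronic genes (8 of 305). Processed_transcript genes, a class that holds many spliced host genes of small RNAs, stood higher at 16.6% (90 of 541, 13.6 to 20.05). Of 21938 protein-coding genes, 11752 (53.6%, 52.9 to 54.2) had a shared peak at a start. The lncRNA and protein-coding shares were counted by unlike rules. A lncRNA gene counted only through a member, so its peaks at coding starts, as at Gas5, Snhg1 and Tug1, were left out. Protein-coding genes lost no peak in that way. Gene classes differ in the number of transcripts per gene, and the part of that difference in these shares was not tested.

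Peaks at lncRNA starts were lower than those at coding starts and higher than those away from all starts. In the deposited signal, which the authors normalised for read depth within each library, the median was 1.67 in replicate 1 (lower and upper quartile 1.02 and 3.45) and 1.36 in replicate 2 (0.859 and 2.36). Coding starts had medians of 3.12 and 2.34, and peaks away from every start 1.405 and 1.05. The order of the 3 classes was the same in both libraries. The median percentile among all shared peaks was 43.4 for the lncRNA starts. By gene type, medians ran from 1.56 and 1.23 for antisense starts to 2.08 and 1.66 for processed_transcript starts, with 2.46 and 1.36 for the 9 sense_intronic ones. Peaks that held the start were higher (medians 2.37 and 1.79) than peaks that lay beside it (1.53 and 1.18). The range within the set was far wider than any of these differences, from 0.160 to 80.6 in replicate 1 and from 0.208 to 160.4 in replicate 2. A peak of the shorter list overlapped 480 members in both libraries (62.5%, 59.0 to 65.9). This held for 68.0% of all shared peaks, 80.3% of those at coding starts and 50.04% of those away from starts.

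Replicates ranked the members alike. Spearman's rho of the 2 values was 0.908 over the 768 peaks, given as a description, since peaks share a library and its depth. The value was lower in replicate 2 for 593 members (77.2%, 74.1 to 80.1), against 80.8% of all shared peaks, and the median log2 ratio of replicate 2 to replicate 1 was -0.40. The sources used here do not say whether values of the libraries are comparable. After the running median of shared peaks of like value had been taken off, the median log2 ratio of the members was 0.03, between 0.10 at coding starts and -0.06 away from starts.

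**Figure D2:**
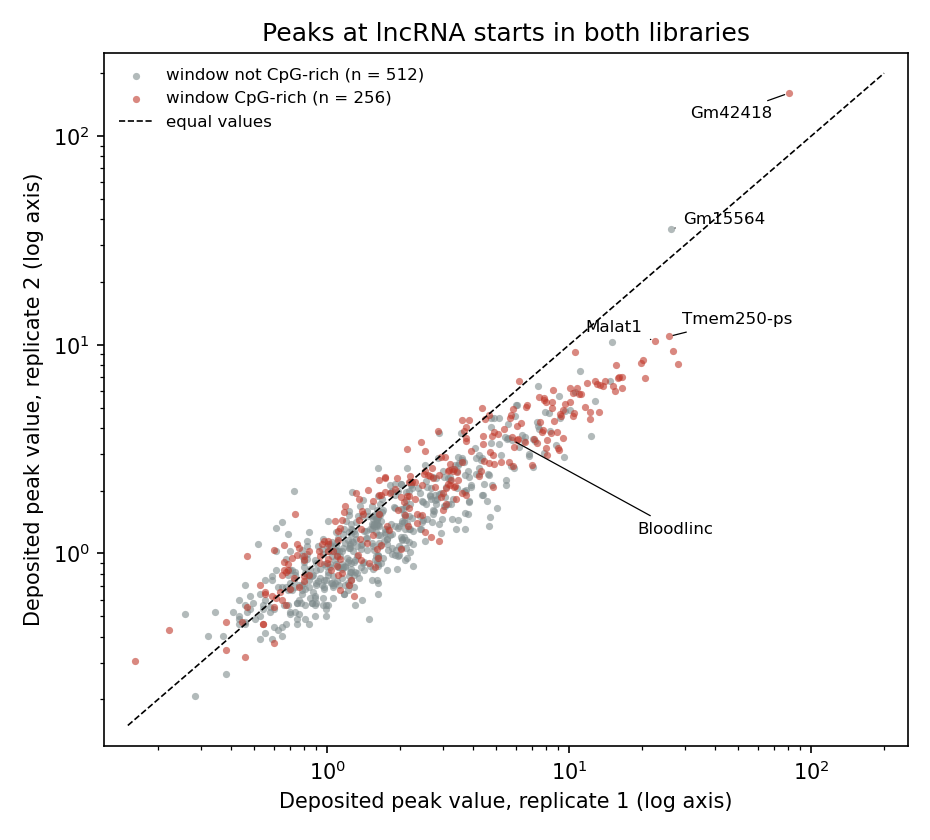
Each point is 1 of the 768 peaks, with its deposited signal in replicate 1 (horizontal) and replicate 2 (vertical) on log axes, coloured by CpG content, and the dashed line marks equal values. Most points lie below the line, whereas Gm42418 and Gm15564 lie above it at the upper end.

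Some lncRNA-start peaks were seen in 1 library only. By the same distance rule replicate 1 had 1128 such peaks, of which 360 (31.9%) overlapped none in replicate 2. Replicate 2 had 885, of which 129 (14.6%) overlapped none in replicate 1. For comparison, 30382 of all 47198 replicate 1 peaks overlapped one in replicate 2. The matching count for replicate 2 and the medians of unshared peaks of all classes were not computed. The unshared lncRNA-start peaks were low, with medians of 0.702 and 0.610, against 1.67 and 1.34 for the shared ones of the same library. Around the limit of 1000 bases from a lncRNA start, the 19 members in the last 100 bases inside had medians of 1.86 and 1.30, and the 37 peaks in the first 100 bases outside had 1.37 and 1.16. Around the limit from coding starts, the 14 members just outside it had 1.31 and 1.22, and the 26 peaks just inside, which are not members, had 1.73 and 1.25.

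CpG content split the set. A window of 500 bases around the peak centre was called CpG-rich when its GC content was over 50% and its observed over expected CpG over 0.6, the usual marks of a CpG island promoter. It was CpG-rich for 256 members (33.3%, 30.004 to 36.8), against 47.1% of all shared peaks, 74.5% (73.9 to 75.2) at coding starts and 7.17% (6.71 to 7.66) away from starts. Processed_transcript starts were CpG-rich in 65 of 132 cases (49.2%, 40.4 to 58.1), lincRNA starts in 30.2% and antisense starts in 30.1%. Peaks that held the start were CpG-rich more often (43.9%, 38.1 to 49.9) than peaks beside it (27.0%, 23.1 to 31.2). The share rose with peak value, from 22.2% in the lowest of 5 groups, cut at every 20 percentiles of the mean percentile of value, to 69.1% in the highest, and at coding starts from 54.2% to 94.1%. CpG-rich members had medians of 2.72 and 2.19, and the other 512 had 1.55 and 1.17. The matching values at coding starts were 4.23 and 3.06 with CpG-rich windows and 1.65 and 1.30 without. Away from every start they were 2.25 and 1.77 with CpG-rich windows and 1.37 and 1.03 without. With and without a CpG-rich window alike, the members' medians lay between those of the other classes.

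**Figure D3:**
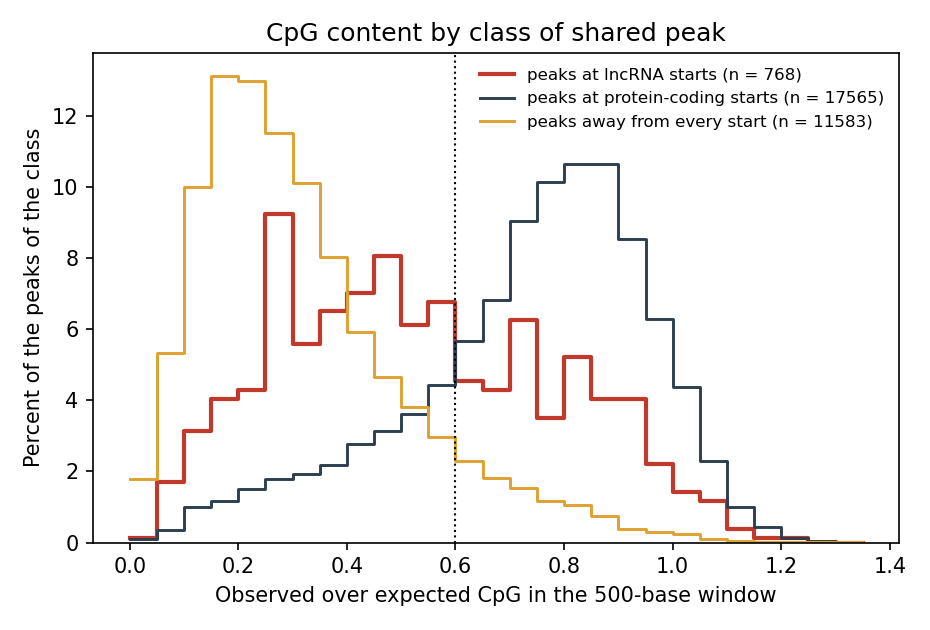
Percent of the peaks of each class (vertical axis) by observed over expected CpG in the 500-base window (horizontal axis), in steps, with the dotted line at 0.6. Peaks at lncRNA starts spread across the whole range, between the peaks away from starts on the left and the peaks at coding starts on the right.

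Some sequence motifs, among them GATA, CTCF, RUNX and SP, differed in share between members with and without a CpG-rich window, and others did not. CCAAT was found in 23.0% (18.03 to 28.7) with one and 26.2% (22.4 to 30.2) without. Motifs were searched on both strands in the 200 bases around each peak centre, and a match is a description of the letters, not a bound site. The GATA motif, AGATAA or TGATAA, the letters read by the blood factor GATA1 and its relatives, was found in 130 members (16.9%, 14.3 to 19.8). It was found in 13.7% of all shared peaks, 5.87% (5.53 to 6.23) of those at coding starts and 25.3% (24.6 to 26.2) of those away from starts. Without a CpG-rich window, 23.6% of members (20.02 to 27.6) had it, against 14.8% (13.8 to 15.9) at coding starts and 26.8% (26.0 to 27.7) away from starts. With a CpG-rich window, 3.52% had it (1.62 to 6.57), against 2.83% (2.55 to 3.12) at coding starts and 6.26% (4.71 to 8.13) away from starts, both inside the members' interval. For this motif, then, the members without CpG-rich windows lay nearer to peaks away from every start than to coding starts.

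CTCF is the zinc finger protein that marks chromatin loop ends. Its consensus was found in 94 members (12.2%, 10.01 to 14.8), against 13.0% of all shared peaks, 4.12% at coding starts and 26.3% away from starts. Of members without a CpG-rich window 15.4% (12.4 to 18.9) had it, which lay between coding starts (9.19%, 8.36 to 10.1) and peaks away from starts (27.7%, 26.8 to 28.5). The motif of the blood factor RUNX1 and its relatives, TGTGGT, was found in 11.6% (9.41 to 14.1), between the 7.28% at coding starts and the 16.7% away from starts and near the 11.1% of all shared peaks. AP-1, TGANTCA, was found in 5.34% (3.86 to 7.17), above the 2.62% at coding starts and with an interval that held the 6.94% away from starts and the 4.37% of all shared peaks.

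SP, ETS and NRF1 motifs ran the other way. The SP motif GGGGCGG, read by general promoter factors, was found in 138 members (17.97%, 15.3 to 20.9), against 35.1% at coding starts, 7.11% away from starts and 23.6% of all shared peaks. In CpG-rich members it reached 35.9% (30.1 to 42.1), against 41.3% (40.5 to 42.2) at CpG-rich coding starts. ETS, CCGGAAG, stood at 6.38% (12.0% at coding starts, 2.59% away, 8.17% of all), and the consensus of NRF1, a regulator of genes for mitochondria, at 3.65% (7.58%, 0.872% and 4.84%). CCAAT was found in 25.1% (22.1 to 28.4), near the 24.1% of all shared peaks. Its interval held the 26.5% of coding starts but not the 20.4% of peaks away from starts. YY1, AANATGGC, was found in 1.95% of members (1.10 to 3.20), against 5.99% at coding starts, 4.75% of all shared peaks and 3.12% away from starts, of which the last lay inside the interval. The remaining motifs were rarer than 8% in members. TATAAA was found in 3.12% (3.01% of all shared peaks), TTGCNNAA of the CEBP factors in 7.16% (5.595%), CCACACCC of KLF1 and relatives in 2.99% (3.76%), TGTTTAC of the FOXA factors in 2.34% (1.75%) and TGACGTCA of the CREB factors in 1.82% (1.66%). A pair of an E-box and GATA, the composite site of GATA1 and TAL1, was found in 9 members (1.17%, against 0.727% of all shared peaks), all without CpG-rich windows, and each such match holds a GATA match too.

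**Figure D4:**
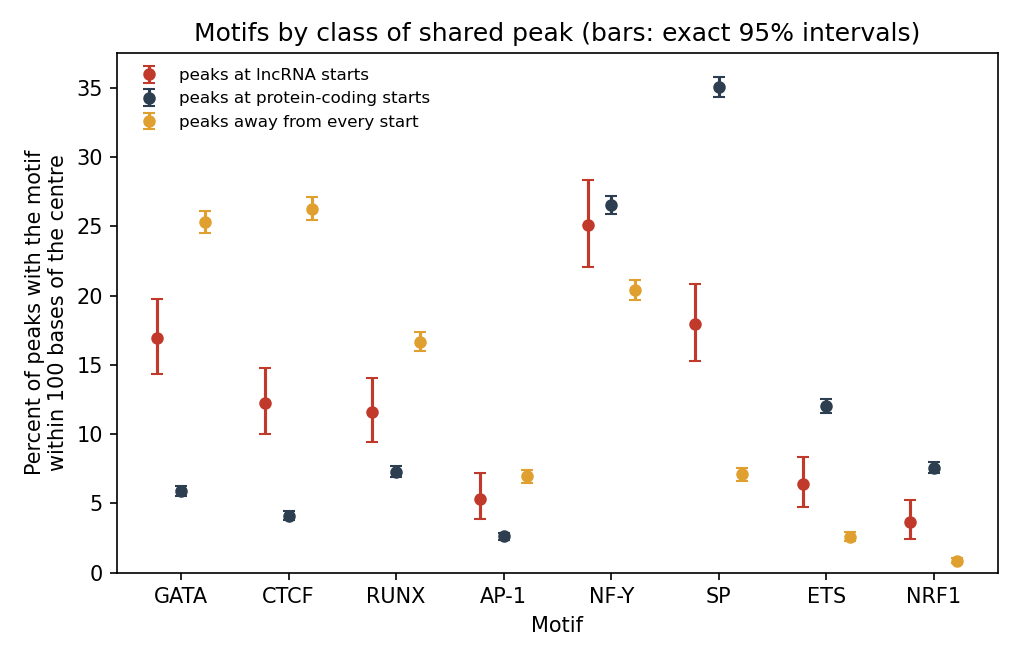
Percent of peaks with each motif within 100 bases of the centre (vertical axis) for the 3 classes, with exact 95% intervals as bars, where NF-Y stands for CCAAT. For GATA, CTCF, RUNX, SP, ETS and NRF1 the lncRNA starts lie between the other classes, at 16.9% for GATA against 5.87% and 25.3%.

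A footprint lay in 667 members in replicate 1 and in 607 in replicate 2. In both libraries it did so in 564 (73.4%, 70.2 to 76.5), against 74.9% of all shared peaks, 76.4% at coding starts and 73.0% away from starts. Calling a footprint depends on how many cuts a peak holds, so the share was also read within the 5 groups of like value. In the middle group it was 83.0% (76.6 to 88.2) of the lncRNA starts, 66.9% (65.2 to 68.5) of the coding starts and 91.5% (90.4 to 92.5) of the peaks away from starts. The group below it had 64.4%, 50.6% and 76.2% in the same order. In the lowest group the shares were 37.7%, 30.3% and 39.3%, and in the highest group all 97 lncRNA-start peaks had one. Peaks that held the start had a footprint in both libraries in 84.0% of cases (79.2 to 88.0), and peaks beside it in 67.2% (62.8 to 71.3), and the former were also higher.

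**Figure D5:**
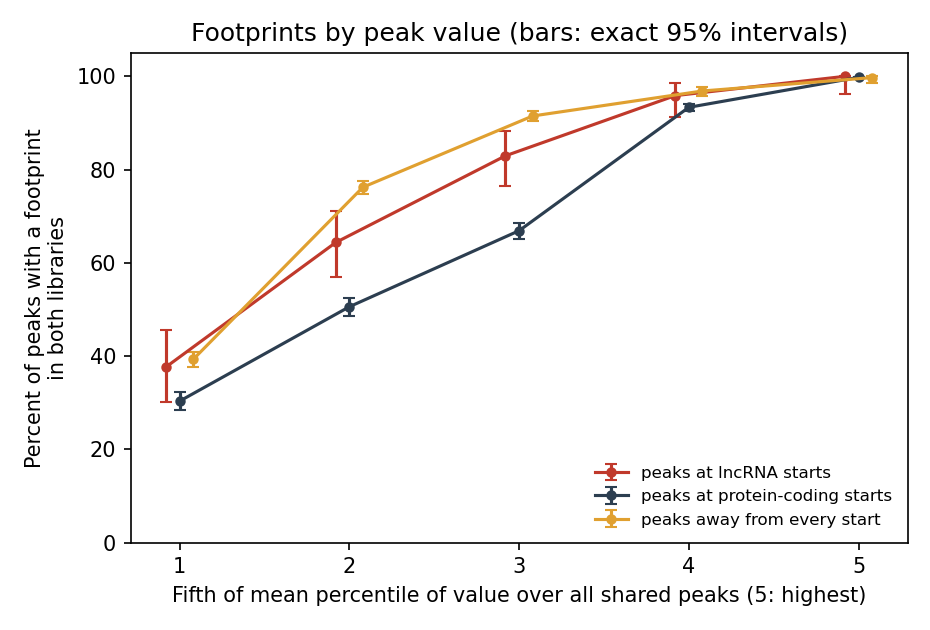
Percent of peaks with a footprint in both libraries (vertical axis) by group of mean percentile of value over all shared peaks (horizontal axis, 5 is highest), for the 3 classes, with exact 95% intervals as bars. In group 3 the lncRNA starts stand at 83.0%, between 66.9% at coding starts and 91.5% away from starts.

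Matches inside footprints differed by motif, counted over the whole peak with 5 bases of margin. A CTCF match lay in a footprint in 82 members in replicate 1 and in 52 in replicate 2, and in 52 in both. SP matches did so in 86 and 50 (45 in both), CCAAT in 50 and 44 (30 in both) and NRF1 in 26 and 17 (16 in both). GATA matches did so in 26 and 12 members, and in 5 in both. Of the members with a footprint, 3.90% in replicate 1 and 1.98% in replicate 2 had a GATA match in one, against 3.60% and 2.15% of all shared peaks with a footprint. For CTCF the shares were 12.3% and 8.57%, against 11.5% and 8.96%. The low count for GATA beside CTCF was thus that of all shared peaks. For SP (12.9% and 8.24%, against 19.9% and 15.7%), NRF1 (3.90% and 2.80%, against 5.61% and 5.74%) and CCAAT (7.50% and 7.25%, against 10.1% and 8.51%) the members had the lower shares. No intervals were computed for these shares, so counting error was not set against the differences. The NRF1 share in replicate 1 rests on 26 of 667 members, and the CCAAT share in replicate 2 on 44 of 607. No match of the composite site lay in a footprint in either library, in 9 members that had one. Among all shared peaks 221 had such a match, and one lay in a footprint in 21 in replicate 1 and 2 in replicate 2. So few members are not set apart from all shared peaks by this.

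The highest members were uneven in kind. Gm42418 headed the set, with 80.6 in replicate 1 and 160.4 in replicate 2 at chr17:39846781-39846900, where RefSeq places Rn18s-rs5, a pseudogene of the 18S ribosomal RNA. All of its 32-base words recurred elsewhere in the chromosomes of the assembly. Gm15564, an antisense gene in the body of Kpna1, came next with 26.3 and 36.0 at chr16:35981661-35981820, and 62.8% of its words recurred. Both were higher in replicate 2, whereas the other 8 of the 10 highest were lower there. After the running median had been taken off, their log2 ratios were 2.31 and 1.77, the highest of the members matched 1 to 1 together with AC132253.9 at 1.43 (0.653 and 1.414, 62.7% of words recurring). The part of repeated sequence in these values was not tested. The 22 members in which at least 50% of words recurred (2.86%, against 0.838% at coding starts and 1.99% away from starts) had a median ratio after that step of -0.01. Below these came Tmem250-ps (25.9 and 11.0) and 1700096K18Rik (26.9 and 9.37), both lincRNA genes with CpG-rich windows, then the Malat1 peak (22.6 and 10.5), 6720427I07Rik (28.1 and 8.10), 1810026B05Rik (20.1 and 8.50), 1700028E10Rik (19.9 and 8.21), Gm26912 (15.1 and 10.3) and Gm15287 (20.5 and 6.96). All of these but Gm26912 had CpG-rich windows.

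The Gm26912 peak, at chr12:110845201-110845440, covered the RefSeq tRNA gene n-TIaat6, which RNA polymerase III transcribes. In all, 14 members overlapped a RefSeq tRNA gene (1.82%, 1.00 to 3.04), as did 0.199% of peaks at coding starts and 1.48% of those away from starts. They were high, with medians of 5.80 and 5.01, all had a footprint in both libraries, and 13 of 14 were above the running median in replicate 2, with a median log2 ratio after that step of 0.55. Peaks over tRNA genes in the other classes stood on the same side, with 32 of 35 above it at coding starts and 145 of 171 away from starts. Such peaks were high there too, with medians of 7.07 and 5.64 at coding starts and 4.21 and 3.38 away from starts. A footprint in both libraries lay in 35 of 35 and 169 of 171 of them. At the lower end, Gm7932 (1.49 and 0.485), the sense_intronic gene 4930405O22Rik (4.68 and 1.36) and Gm43904 (4.71 and 1.497) had the lowest log2 ratios after that step, at -1.35, -1.24 and -1.10. By gene type, the next highest were 1700113A16Rik among antisense starts (12.8 and 6.74) and Gm10433 among processed_transcript starts (15.6 and 7.97). Among sense_intronic starts the highest were those of Peg13, Gm47921 (3.14 and 1.73) and 4930405O22Rik.

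Host genes of small nucleolar RNAs, which guide the modification of ribosomal RNA and are needed in every growing cell, were among the known lncRNAs with members. Of 10 annotated hosts with a start apart from coding starts, 7 had a member, 1 peak each, against 7.10% of all lncRNA genes with such a start. This list and those below were chosen with earlier results of these data known. Their genes were not matched to all lncRNA genes by number of starts. Snhg8 was highest (16.5 and 6.97), followed by Snhg15 (14.1 and 6.71), Snhg5 (13.8 and 6.35), Snhg6 (4.68 and 2.70), Snhg20 (3.35 and 2.55), Snhg17 (3.19 and 2.52) and Snhg12 (2.96 and 1.86). All 7 had CpG-rich windows, a footprint in both libraries and a centre within 250 bases of the start. Their medians, 4.68 and 2.70, stood above the 1.67 and 1.36 of all members. Gas5 (20.5 and 7.62) and Snhg1 (12.9 and 5.71) had high peaks too, but these lay at coding starts and were not members.

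Among widely expressed nuclear lncRNAs, 5 of 10 with a start apart had members, against 7.10% of all lncRNA genes with such a start. Malat1, an RNA of nuclear speckles, had a peak of 11.1 and 7.47 over its start (chr19:5802601-5802780) and the higher one, whose edge lay 889 bases away, upstream of it. Neat1, the scaffold of paraspeckles, had 1 member inside its gene (1.60 and 1.62). The peak nearest upstream of the Neat1 start, 303 bases away at chr19:5845781-5845980 with 8.56 and 6.07, was nearer to a start of Frmd8os and is counted for that gene. Frmd8os had 6 members, the most of any gene, with values in replicate 1 from 1.01 to 8.56. Pvt1, beside the Myc gene, had 4 low members (replicate 1 values 1.11, 1.18, 1.24 and 1.54, and replicate 2 values 1.19, 0.873, 1.08 and 1.22). Epb41l4aos had 5.68 and 4.45, and Firre, an X-linked nuclear RNA, 1.96 and 0.970. Miat, Lncpint, Pantr1, Ptprv and Tug1 had none, although Tug1 had a peak of 10.4 and 4.96 at a coding start. Ptprv had peaks of 3.77 and 2.01 within 1000 bases of a start that gave no member. Lncpint (1.11) and Pantr1 (0.727) had a peak in replicate 1 alone.

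Of the 4 lncRNAs of the X inactivation centre 3 had members, against 7.10% of all lncRNA genes with a start apart. Ftx, an activator of Xist, had 4, the highest of them at a start inside the gene (9.48 and 2.91 at chrX:103622381-103622660), the others at 2.88 and 1.15, 1.60 and 0.915, and 1.01 and 0.943. Tsix, which runs antisense to Xist and represses it, had 1.60 and 1.05 at its start and 0.591 and 0.388 beside it. Jpx had 1.39 and 1.59. Xist, the RNA that coats the inactive X, had a peak of 1.04 in replicate 1 only and no member. Sex was not collected for either library.

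Imprinted lncRNAs, transcribed from 1 parental copy, had members at 6 of 10 genes, against 7.10% of all lncRNA genes with a start apart. Nespas was highest (6.59 and 3.41). Kcnq1ot1, which silences neighbours in cis from within Kcnq1, had 4.57 and 1.79 at its start and lower peaks of 0.690 and 0.832 and of 0.665 and 0.832 inside, both matched to 1 replicate 2 peak. Peg13 had 2.74 and 2.29 and, further upstream, 0.764 and 0.596. Meg3 had 2.01 and 1.07, H19, an abundant fetal lncRNA, 1.56 and 1.04, and Airn, which silences Igf2r, 1.13 and 0.970 with a further peak of 0.468 and 0.970 matched to the same replicate 2 peak. The medians of these 10 peaks, 1.35 and 1.01, lay below those of all members. Rian, Mirg, Snhg14 and Nctc1 had no peak, and for these 4 no stretch with a listed false discovery rate lay within 1000 bases of a start in either library.

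Of 9 microRNA host genes with a start apart, 5 had members, against 7.10% of all lncRNA genes with such a start. Mir142hg, host of a microRNA of blood cells, was the highest (10.04 and 4.87 at chr11:87755421-87755640). Mir17hg, host of a growth-promoting cluster, had 3.17 and 2.48, Mir670hg 2.88 and 1.93 and Mir99ahg 0.456 and 0.457. Dleu2, host of the miR-15a and miR-16-1 microRNAs, had 5 members: 6.59 and 3.60, 3.22 and 2.12, 2.66 and 2.36, 2.46 and 2.12, and 1.36 and 1.44, of which the pair with the same value in replicate 2 overlapped and shared that replicate's peak. Mir22hg had a member as well (7.86 and 3.02) through a peak 1015 bases from the nearest coding start. Its higher peak of 25.2 and 6.71 lay at a coding start. Mir155hg, Mir9-3hg, Mir124a-1hg and Mirt1 had none. Of 6 annotated genes listed for blood, 2 had members, Dleu2 and Mir142hg, against the same 7.10%. Ttc39aos1, Hotairm1, Mir155hg and Trp53cor1 had none, although Ttc39aos1 had peaks of 3.18 and 2.40 within 1000 bases of a start.

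Developmental lncRNAs not typical of liver, such as Hotair, Hottip, Fendrr, Sox2ot and Rmst, had no member at any of 17 genes, where 7.10% of all lncRNA genes with a start apart had one. At so few genes a lower share than that was not detectable. For 13 of the 17 no stretch with a listed false discovery rate lay within 1000 bases of a start in either library. Dnm3os (0.481) and Bvht (0.715) had a low peak in replicate 1 alone, and Nkx2-2os had low peaks in each library (0.690 and 0.582) that gave no member.

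Members near red cell genes were few. Within 50000 bases of a start of 49 erythroid genes lay 7 members (0.911%, 0.367 to 1.87), against 1.27% of peaks at coding starts and 1.42% of those away from starts, both inside that interval. Bloodlinc lay 9658 bases from Slc4a1, which encodes the anion exchanger of the red cell membrane, with 5.82 and 3.49, 6 footprints in replicate 1 and 7 in replicate 2. Gm26664 had 10.1 and 5.32 and, beside it, 1.90 and 1.90, at 37257 and 35937 bases from Lyl1, with Ier2 the nearest coding gene (1129 and 2169 bases). The lincRNA-typed Zfp469 had 3.47 and 2.90 at 12401 bases from Zfpm1, the partner of GATA1. Gm12063 had 3.35 and 2.08 at 1456 bases from Bcl11a, the repressor of fetal globin. Gm15816, within Ank1, had 1.65 and 1.72, and Gm26577, within Myb, 1.06 and 0.776 at 1561 bases from a Myb start. No member lay within that distance of an alpha- or beta-globin gene.

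Several genes had a run of members. Besides Frmd8os and Dleu2, Gm26901 had 4 peaks (10.9 and 5.78, 9.07 and 3.15, 2.12 and 1.16, 1.84 and 1.39), of which both high ones were CpG-rich. Gm20732 had 1 high peak (13.3 and 4.78) and 3 low ones with 1.01, 1.06 and 1.01 in replicate 1 and 1.03 each in replicate 2. Of these low peaks 2 overlapped each other and were matched to the same replicate 2 peak. On chromosome X lay 37 members, with medians of 1.17 and 1.01, and on Y none. The counts and medians of all shared peaks on X and Y were not computed, so neither result is set apart from theirs.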

How the data were processed

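DNase-seq of 2 libraries of 1 group was used as deposited, aligned to mm10 per the file headers. The peak signal is the authors' read-depth-normalised value per peak, called in each library separately. The sources used here do not give the peak caller, its threshold or the depth. The deposited footprint score is a constant 0.01, so only positions were used. The deposited false discovery rate, of the p-value or q-value kind, is listed only below 0.05 and was used to see where no stretch was listed. Chromosomes 1 to 19, X and Y were kept, 47198 and 36523 peaks in the longer lists.

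Distances run from the peak's nearest edge. Each shared peak took the replicate 2 peak with most shared bases. The log2 ratio was also given less a running median over 1001 peaks matched 1 to 1 and ordered by mean log2 value. Intervals are exact Clopper-Pearson ones at 95%. A word recurred when its 32 bases, on either strand, occurred more than once in those chromosomes. Sequences came from RefSeq's GRCm38 assembly, and starts from GENCODE vM21. Python 3.11 with SciPy was used. The code passed 10 of 10 checks on made-up data.

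The members and lists were chosen with earlier results of these data known. Named are the members at genes of 7 lists, the 10 highest, the genes with most members (at most 5), the 3 highest and 3 lowest ratios, the 3 highest per gene type, members near erythroid genes and those whose sequences are printed. Any other gene was named with its values already known. The 14 alternatives, 10 fixed earlier and 4 chosen after seeing the data, covered the peak list, distances, overlap, values, annotation, repeats and leaving out each library.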

Additional observations from a re-analysis of the deposited data

How the results depend on the processing

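No paired analysis was possible because there is 1 group of 2 libraries. Of 94 values recomputed under 14 alternatives 73 stayed within a set limit and 21 moved beyond it. For a median value the limit was the standard deviation of the 2 library medians, 0.22. For the median log2 ratio it was an interval from -0.45 to -0.36, and for each share its exact binomial interval. The number of members has no such spread, and a wide limit was used: 885 and 1128 counted as within it, 483 and 398 as beyond it. The 12 median log2 ratios among the 94 values, the ones that could change sign, ran from -0.53 to -0.39. With the shorter peak list there were 483 members, with medians of 2.71 and 1.97, a median log2 ratio of -0.48, footprints in both libraries in 85.3% and CpG-rich windows in 42.9%. With the upper 50% of values these were 398, 3.37 and 2.30, -0.53, 93.2% and 43.5%. With at least 50% of both peaks shared, the replicate 1 median was 1.98, the log2 ratio -0.46 and the footprint share 81.1%. Within 500 bases of a lncRNA start 37.1% were CpG-rich. Leaving out 1 library gave 885 to 1128 members, footprints in both libraries in 50.3% to 62.6%, CpG-rich windows in 27.0% to 33.2% and a GATA motif in 13.9% to 16.8%. The median of replicate 1 alone was 1.23 and that of replicate 2 alone 1.15. The 4 alternatives chosen after seeing the data used peak centres, coding transcripts only, no RefSeq mRNA starts or no recurring sequence. They gave 733 to 816 members and moved no value beyond its limit. Depth is unknown, so low peaks and missing footprints cannot be set against the number of reads.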
